A study of Mus musculus with 13 samples.

Results

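Aminoacyl-tRNA synthetases are the enzymes that join each amino acid to its transfer RNA, and without them no protein can be made. The members described here are 36 genes of 13222 in the deposited table, taken by name: the 20 genes of the cytosolic enzymes and 16 genes, with names ending in 2, of the separate enzymes that are imported into mitochondria. All 36 were in the table and all 36 stayed among the 12319 genes that had enough reads to test, so no member was lost before testing. The question was how these genes were expressed in mammary carcinoma cells given doxorubicin (DOX), an anthracycline that damages DNA, the cytokine interleukin-17A (IL-17A), or both.

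The cells were 4T1-Thy1.1, a mouse mammary carcinoma line that carries a Thy1.1 transgene, sampled after 48 hours. The labels give DMEM/F12 with fetal bovine serum as the medium, while the study's methods give RPMI for these cells, and which was used for these libraries is not known here. Control cells were untreated (n = 3 libraries, replicates 1, 3 and 5). The other cells were given 200 ng/mL DOX (n = 4, replicates 1 to 4), 200 ng/mL DOX with 25 ng/mL IL-17A (DOX+IL-17A, n = 3, replicates 2, 3 and 5) or 25 ng/mL IL-17A alone (n = 3, replicates 2, 3 and 5). All are a single line in culture, without the other cells of a tumor, and the labels do not say whether replicates were separate cultures, so that p-values measure the spread between these libraries, which may be technical in part.

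RNA was measured by sequencing the 3′ ends of polyadenylated transcripts in 75 base reads. A gene's value is its reads divided by the library's TMM-scaled size, and is not divided by transcript length, since each transcript gives reads from its end only. Reads on listed genes ranged from 4445592 to 16930600 per library, and 3 reads, taken as the smallest detectable amount, equaled 0.183 to 0.613 units depending on the library, a floor that covers counting error only. The markers of epithelial and 4T1 cells were detected in all libraries and summed to 1932 to 2248 in the control libraries and 935 to 1034 with DOX, with 5 of 6 past the test and lower, led by *Krt19* (-2.08, adjusted p = 0.00011), *Epcam* (-1.50, adjusted p = 0.00039) and *Krt7* (-0.98, adjusted p = 0.00097), all log2 fold changes of DOX against control by limma. Of 6 immune cell markers, 2 were in the table, *Cd68* and *Ptprc*. Their sum was 1.52 to 6.33 in the control libraries and 10.5 to 19.4 with DOX. *Cd68* was past the test (2.01, adjusted p = 0.016, and 1.14 with adjusted p = 0.0498 without control replicate 1). Without DOX replicate 1 as well, *Cd68* did not pass (1.07, adjusted p = 0.098). *Ptprc* was not past the test (0.39) and had 8 to 13 reads in the DOX libraries. None of the endothelial markers was in the table, and fibroblast markers summed to 43.2 to 97.8 in control and 23.8 to 64.8 with DOX. In bulk RNA fewer cells of a type and less RNA per cell cannot be told apart. The part of these markers in the results was not tested. Among the libraries that stood apart was control replicate 1, at 74.7 on the second principal component (20.5% of the variance). Another was DOX replicate 1, in which 8 muscle markers summed to 234 against 4.29 to 28.2 in the other DOX libraries. Its red blood cell markers summed to 66.5 against 0 to 14.4 in all other libraries. Results that rest on control replicate 1 or DOX replicate 1 are given with and without that library. On the first component (40.1% of the variance) IL-17A replicate 5 was at -58.9, against -15.8 and -26.4 in its group. DOX+IL-17A replicate 5 was at 22.2 there, against 39.0 and 35.6. These libraries were left out only in the fits without 1 library at a time.

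Each synthetase recognizes its own amino acid and the matching set of transfer RNAs, and in cells most mitochondrial enzymes are products of genes separate from the cytosolic ones. *Kars* and *Gars* are exceptions and encode both forms. Several cytosolic enzymes (the products of *Eprs*, *Iars*, *Lars*, *Mars*, *Qars*, *Rars*, *Kars* and *Dars*) are held in a multi-synthetase complex on the scaffold proteins Aimp1, Aimp2 and Eef1e1. When amino acids are short or the endoplasmic reticulum is stressed, kinases phosphorylate eIF2α, and the transcription factor ATF4 is made in larger amount. ATF4 is known to act with C/EBP proteins at response elements of genes for amino acid synthesis, transport and tRNA charging. *Wars* is known in addition as a gene that interferon induces.

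The letters of the C/EBP-ATF response element (TGATGNAA, both strands) were searched in the promoters that RefSeq gives for these genes in GRCm38.p6, from 250 bases before to 50 bases after the start site. Of the 20 cytosolic genes 13 were in this promoter table (not *Cars*, *Hars*, *Lars*, *Nars*, *Rars*, *Vars* and *Wars*), and of the 16 mitochondrial genes 14 (not *Hars2* and *Pars2*). The letters were found in 5 of the 13 cytosolic promoters (*Aars*, *Gars*, *Iars*, *Tars* and *Yars*) and in 0 of the 14 mitochondrial ones, against 3.97% of all 32851 promoters in the table. The stretches are shown because they are what these genes share by sequence rather than by expression. The match is in capitals, and each is read 5′ to 3′ along the strand of its gene, with the match in reverse complement in all but *Yars*.

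*Yars*, chr4:129189876-129189922, plus strand, match from base 4 after the start: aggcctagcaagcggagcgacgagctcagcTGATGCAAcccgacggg
*Gars*, chr6:55037941-55038008, plus strand, match from 30 bases before the start: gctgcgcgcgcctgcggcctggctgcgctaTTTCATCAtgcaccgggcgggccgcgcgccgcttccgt
*Aars*, chr8:111033700-111033767, plus strand, match from 112 bases before the start: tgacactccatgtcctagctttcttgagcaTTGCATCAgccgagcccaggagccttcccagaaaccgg
*Aars*, chr8:111033821-111033861, plus strand, match from base 10 after the start: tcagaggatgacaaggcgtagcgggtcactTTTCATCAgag
*Iars*, chr13:49682107-49682149, plus strand, match from base 8 after the start: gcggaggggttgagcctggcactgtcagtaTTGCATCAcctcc
*Tars*, chr15:11399639-11399703, minus strand, match from 15 bases before the start: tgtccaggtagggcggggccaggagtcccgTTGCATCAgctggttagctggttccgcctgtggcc

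Of these 5 genes *Aars* and *Tars* were past the test and higher with DOX, and *Gars*, *Iars* and *Yars* were not past it. Of all genes tested 12.4% rose. The call of *Tars* was lost in many of the alternative fits given below. Among the searched cytosolic genes without the letters *Kars* rose and *Dars* fell. *Wars*, *Hars*, *Nars* and *Rars*, which also rose, were not in the promoter table. A link between the letters and the response was therefore not tested. The E-box CACGTG was in 4 cytosolic promoters (*Aars*, *Farsb*, *Iars* and *Tars*) and 1 mitochondrial one (*Ears2*), against 7.15% of all promoters. The gamma-activated site TTCNNNGAA was in *Aars*, *Kars* and *Nars2* (8.3% of all promoters), and in *Aars* it lies within the first stretch printed for that gene. The core of the interferon-stimulated response element was in *Qars* (3.44% of all promoters). No motif shared bases with another in these promoters. A match is a description of letters in a window, and its absence says only that they are not in that window.

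Cytosolic synthetases were expressed at far higher levels than mitochondrial ones. The mean value over 13 libraries of the 20 cytosolic genes had a median of 169 units, from 44.6 for *Wars* to 591 for *Eprs*, and was over 20 for all 20. That of the 16 mitochondrial genes had a median of 8.95, from 0.99 for *Aars2* to 49.1 for *Iars2*, and was over 20 for 3. The mitochondrial genes rested on fewer reads, with a median of 91.0 mean reads per library against 1714 for the cytosolic genes. The standard error (SE) of the log2 fold change of DOX against control had a median of 0.23 (0.17 to 0.49) over cytosolic and 0.35 (0.27 to 0.55) over mitochondrial genes. The ranges overlapped, so that some cytosolic genes (*Mars*, *Farsa* and *Tars*) had a larger SE than some mitochondrial ones.

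**Figure D1:**
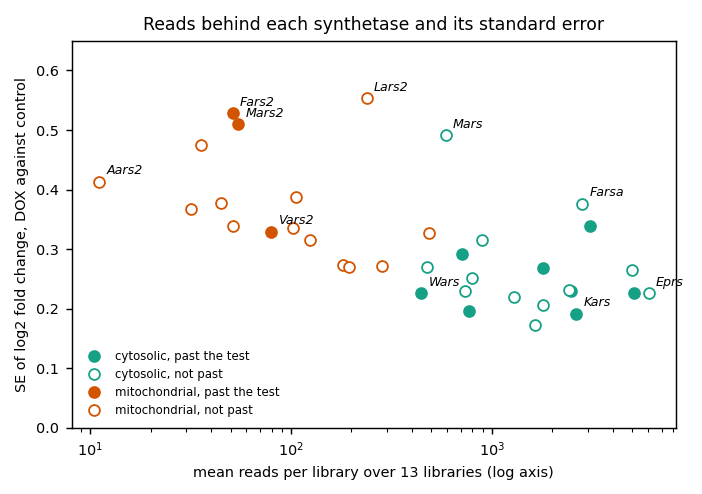
Mean reads per library over 13 libraries (log axis) against the SE of the log2 fold change of DOX against control, 1 point a gene, filled where past the test. Mitochondrial genes lie at fewer reads and mostly higher SE, and the cytosolic genes *Mars* and *Farsa* have SE of 0.49 and 0.38 at 588 and 2808 mean reads.

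With DOX, the cytosolic synthetases moved up more than down. Of 20 genes, 7 rose (*Wars*, *Aars*, *Hars*, *Tars*, *Nars*, *Rars* and *Kars*), 1 fell (*Dars*) and 12 did not pass the test (limma on log2(value + 1), Benjamini-Hochberg adjusted p under 0.05 over 12319 genes). Among all genes tested 12.4% rose and 9.71% fell. The median log2 fold change was 0.58 over the cytosolic genes, with 17 of 20 above 0, and 0.09 over all genes tested. Of the 16 mitochondrial synthetases 1 rose (*Mars2*), 2 fell (*Fars2* and *Vars2*) and 13 did not pass, with a median of 0.05. Past both the adjusted p and a 2-fold change were 4 cytosolic and 2 mitochondrial genes, against 15.3% of all genes tested in either direction. In 9 cytosolic and 1 mitochondrial genes all DOX libraries lay above all control libraries, against 18.5% of all genes tested, and in 1 cytosolic and 2 mitochondrial genes all lay below, against 15.2%. Without control replicate 1, 9 cytosolic genes rose and 1 fell, and 1 mitochondrial gene rose (*Mars2*). Of the 12795 genes tested in that fit 1434 rose and 1216 fell. Without DOX replicate 1 alone, 5 cytosolic genes rose and 1 fell, and 1 mitochondrial gene rose. Of the 12172 genes tested there 1216 rose and 951 fell. With both libraries left out, 9 cytosolic and 1 mitochondrial genes passed, while 1201 of 12581 genes rose and 1025 fell.

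Summed over the 20 cytosolic genes, the value was 4177, 3356 and 2836 in the control libraries and 4534, 4697, 4579 and 4926 with DOX. It was 4056, 4425 and 5435 with DOX+IL-17A and 3897, 2922 and 3506 with IL-17A. All DOX libraries were above all control libraries. The DOX+IL-17A libraries overlapped with control through control replicate 1 only (4177 against 4056), and all were above the other control libraries. The 16 mitochondrial genes summed to 300.3, 187 and 198 in control and 256, 179, 209 and 192 with DOX, and these ranges overlapped. The highest sum of mitochondrial genes was in control replicate 1. With scaling by library size in place of TMM, the median of all genes moved from 0.09 to 0.24, and the medians of the cytosolic and mitochondrial genes to 0.76 and 0.15. The cytosolic median thus stood above that of all genes under both scalings for DOX. The mitochondrial median was slightly below that of all genes under both. It was above it with the replicate block for DOX (0.114 against 0.090) and in the main fit for DOX+IL-17A against control (0.121 against 0.044). Under library size scaling 2104 genes rose and 830 fell with DOX, against 1528 and 1196 under TMM.

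**Figure D2:**
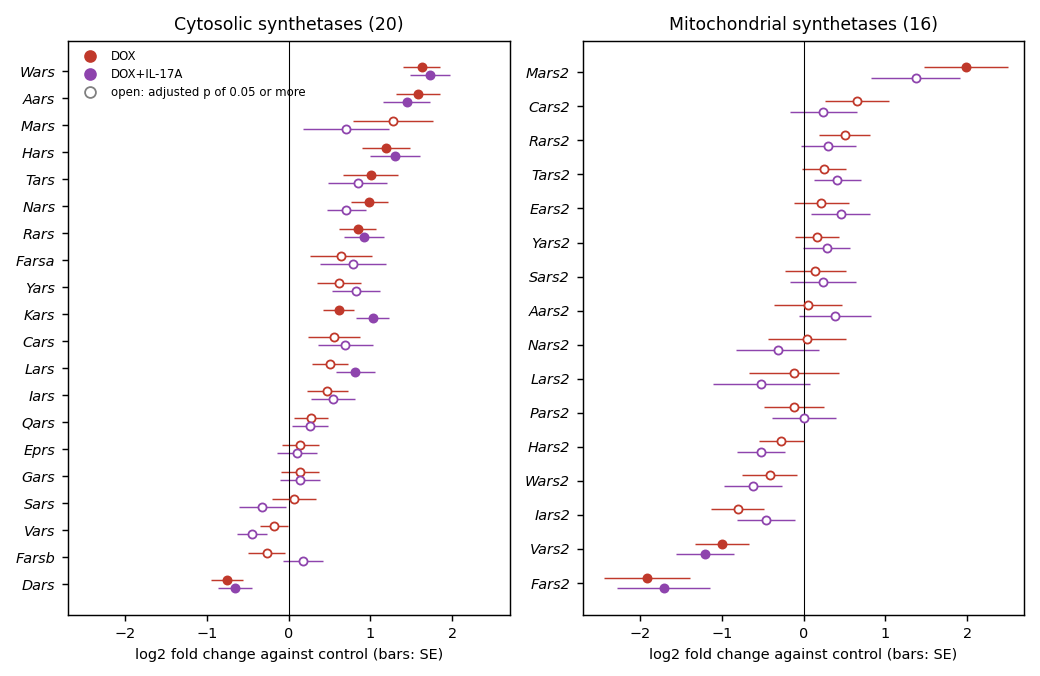
Log2 fold change against control with its SE for each cytosolic (left) and mitochondrial (right) synthetase, for DOX (red) and DOX+IL-17A (purple), filled where the adjusted p was under 0.05. Cytosolic genes lie mostly right of 0, from *Dars* at -0.75 to *Wars* at 1.63 with DOX, while mitochondrial genes spread to both sides, from *Fars2* at -1.92 to *Mars2* at 1.99.

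*Wars*, the tryptophan enzyme (chr12:108860030-108894174 of GRCm38, minus strand), had the largest log2 fold change of the cytosolic genes with DOX. Its values, here and below in order of replicate number, were 25.5, 17.8 and 15.9 in control and 62.0, 57.6, 60.8 and 67.8 with DOX. They were 71.6, 61.1 and 67.4 with DOX+IL-17A and 30.9, 18.7 and 22.8 with IL-17A. Every library with DOX was above every library without it, with a gap from 30.9 to 57.6. The mean was 19.8 ± 5.10 (SD, n = 3) in control and 62.0 ± 4.25 (SD, n = 4) with DOX, and the difference on the log2 scale was 1.63 (SE 0.23, adjusted p = 0.00024, limma).

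*Aars*, the alanine enzyme (chr8:111033144-111057664, plus strand), had values of 78.8, 104 and 75.4 in control and 221, 254, 261 and 294 with DOX. With DOX+IL-17A they were 229, 196 and 284 and with IL-17A 155, 63.8 and 67.9. Again no library without DOX reached the lowest with DOX, the nearest being IL-17A replicate 2. The log2 fold change with DOX was 1.58 (SE 0.27, adjusted p = 0.0010). In the longer of the annotated ends of *Aars* the last 500 bases overlap exons of *Exosc6*, an exosome subunit on the same strand that itself had 1.13 (adjusted p = 0.0049), and reads there could be counted for either gene. *Wars* and *Aars* passed in DOX against control, DOX+IL-17A against control and DOX+IL-17A against IL-17A under all 9 alternative settings tried for single genes and whichever of the 13 libraries was left out.

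*Hars*, the histidine enzyme, had 24.7, 53.8 and 44.8 in control and 82.8, 102, 77.7 and 102 with DOX, with no overlap. The values were 121, 87.8 and 87.9 with DOX+IL-17A and 66.1, 51.9 and 29.7 with IL-17A, where the highest, replicate 2, stayed below the lowest DOX library. Its log2 fold change with DOX was 1.19 (SE 0.29, adjusted p = 0.0096).

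*Nars*, the asparagine enzyme, was among the most abundant members, with 334, 397 and 269 in control and 654, 631, 619.8 and 705 with DOX. All DOX libraries were above all control libraries, and they varied little (SD 37.8, n = 4). With DOX+IL-17A it had 432, 495 and 725, of which replicate 2 was below IL-17A replicate 2 in 484, 277 and 345. Relative to control, the log2 fold change was 0.98 with DOX (SE 0.23, adjusted p = 0.0070) and 0.70 with DOX+IL-17A (SE 0.24, adjusted p = 0.056).

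*Tars*, the threonine enzyme, had 271, 254 and 116 in control and 348, 446, 399 and 418 with DOX. Its values were 339.9, 438 and 313 with DOX+IL-17A and 371, 209 and 116 with IL-17A. Control replicate 5 and IL-17A replicate 5 were low at 116 each, and IL-17A replicate 2 lay among the libraries with DOX. The log2 fold change with DOX was 1.0 (SE 0.34, adjusted p = 0.045) and it was 0.61 without control replicate 5 (adjusted p = 0.22). The call of *Tars* was also lost with edgeR's quasi-likelihood test, with DESeq2, with the replicate block and on leaving out 9 of the 13 libraries 1 at a time.

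Among the enzymes of the multi-synthetase complex, 2 of 8 rose with DOX (*Rars* and *Kars*), 1 fell (*Dars*) and 5 did not pass, with a median log2 fold change of 0.49. Among the 12 outside it, 5 rose and 7 did not pass, with a median of 0.63. Over all genes tested 12.4% rose and 9.71% fell, and the difference between the groups of enzymes was not tested. This grouping is textbook knowledge and was made after the values had been seen.

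*Rars*, the arginine enzyme of the complex, had 259, 129 and 143 in control and 289, 296, 291 and 339 with DOX. With DOX+IL-17A it had 299.8, 312 and 347 and with IL-17A 221, 145 and 161. The DOX libraries lay close together (SD 24.0, n = 4) above a control group spread by its replicate 1 (SD 71.1, n = 3). Its log2 fold change was 0.84 (SE 0.23, adjusted p = 0.016), and the call was lost without control replicate 3 (0.65, adjusted p = 0.066) or replicate 5 (0.73, adjusted p = 0.073).

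*Kars*, the lysine enzyme of the complex and of mitochondria, had 141, 195 and 210.2 in control and 273, 312, 260.3 and 257 with DOX. It had 418, 339 and 347 with DOX+IL-17A, all above all DOX libraries, and 196, 203 and 269.6 with IL-17A. Relative to control, the log2 fold change was 0.61 with DOX (SE 0.19, adjusted p = 0.032) and 1.03 with DOX+IL-17A (SE 0.20, adjusted p = 0.0039). The difference between DOX+IL-17A and DOX, 0.41 (SE 0.19), did not pass (adjusted p = 0.77). Without control replicate 1 the log2 fold change with DOX was 0.44 (adjusted p = 0.095), and the call was lost also when any DOX library was left out (adjusted p = 0.056 to 0.087).

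*Lars*, the leucine enzyme of the complex, had 81.2, 131 and 86.9 in control and 122, 147, 144 and 144 with DOX, which overlapped. It had 176, 166 and 175 with DOX+IL-17A, above every library of the other conditions, and 127, 86.5 and 70.1 with IL-17A. It passed for DOX+IL-17A against control (0.82, SE 0.23, adjusted p = 0.026) and not for DOX (0.51, SE 0.22, adjusted p = 0.11). The difference between these conditions, 0.31 (SE 0.22), was not past the test (adjusted p = 0.98). The call against control was lost without control replicate 5 or without any of the DOX+IL-17A libraries (adjusted p = 0.058 to 0.091).

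*Dars*, the aspartate enzyme of the complex (chr1:128363707-128417368, minus strand), was the cytosolic gene that fell. It had 111, 88.3 and 116 in control and 64.5, 59.0, 60.5 and 62.9 with DOX. With DOX+IL-17A the values were 63.8, 75.1 and 59.9 and with IL-17A 66.8, 89.0 and 107. All DOX libraries were below all control libraries, and IL-17A replicate 2 lay among the libraries with DOX. The log2 fold change was -0.75 with DOX (SE 0.20, adjusted p = 0.014). Without control replicate 5 it was -0.68 (adjusted p = 0.062).

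*Eprs*, the joint glutamate and proline enzyme and the most abundant member, did not pass. It had 670.4, 523 and 505 in control and 588, 579, 633 and 684 with DOX. The values were 419, 676 and 773 with DOX+IL-17A and 472, 463 and 693 with IL-17A. These ranges overlapped in all conditions, with a log2 fold change of 0.14 with DOX (SE 0.23, adjusted p = 0.68). *Gars*, the glycine enzyme, likewise had 299, 203 and 182 in control and 242, 229, 244 and 265 with DOX (0.14, SE 0.23, adjusted p = 0.70). It had 194, 221 and 345 with DOX+IL-17A and 267, 175 and 221 with IL-17A, again without separation.

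*Yars*, the tyrosine enzyme, passed in DOX+IL-17A against IL-17A only among the comparisons. It had 47.7, 34.9 and 26.0 in control and 53.5, 49.3, 65.7 and 50.8 with DOX (0.62, SE 0.27, adjusted p = 0.11). It had 59.1, 55.9 and 75.6 with DOX+IL-17A and 42.1, 19.5 and 32.9 with IL-17A. The last pair of groups did not overlap, and differed by 1.04 on the log2 scale (SE 0.29, adjusted p = 0.027), a call lost when any of 5 of their 6 libraries was left out (adjusted p = 0.053 to 0.14).

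A pair of cytosolic genes was dominated by a single library or an overlap, and they are named for that reason after their values were seen. *Farsa*, the catalytic subunit of the phenylalanine enzyme, had 541, 142 and 113 in control against 345, 333, 294 and 313 with DOX. Control replicate 1 was above every other library, the next highest being 372. Its log2 fold change with DOX was 0.64 (SE 0.38, adjusted p = 0.23) with it and 1.34 (adjusted p = 0.00017) without it. *Mars*, the methionine enzyme (chr10:127296221-127311786, minus strand), had 21.7, 43.4 and 24.2 in control and 56.3, 58.5, 78.3 and 93.2 with DOX. With DOX+IL-17A it had 19.8, 38.6 and 130.3, which spans all values of the DOX group. Relative to control, the log2 fold change with DOX was 1.27 (SE 0.49, adjusted p = 0.074), and this was past the test when DOX+IL-17A replicate 2 or 5, or control replicate 3, was left out (adjusted p = 0.023 to 0.045). The last 500 bases of *Mars* overlap exons of *Ddit3* on the opposite strand, and *Ddit3* rose with DOX. The strand setting of the counting is not given in the sources used here, and without strand the reads of such partners cannot be told apart. *Farsb* and *Sgpp2*, *Cars2* and *Naxd*, and *Iars2* and *Rab3gap2* overlap in the same way, and *Yars* with *C77080* and *Fars2* with *Nrn1* in the longer annotated end only.

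**Figure D3:**
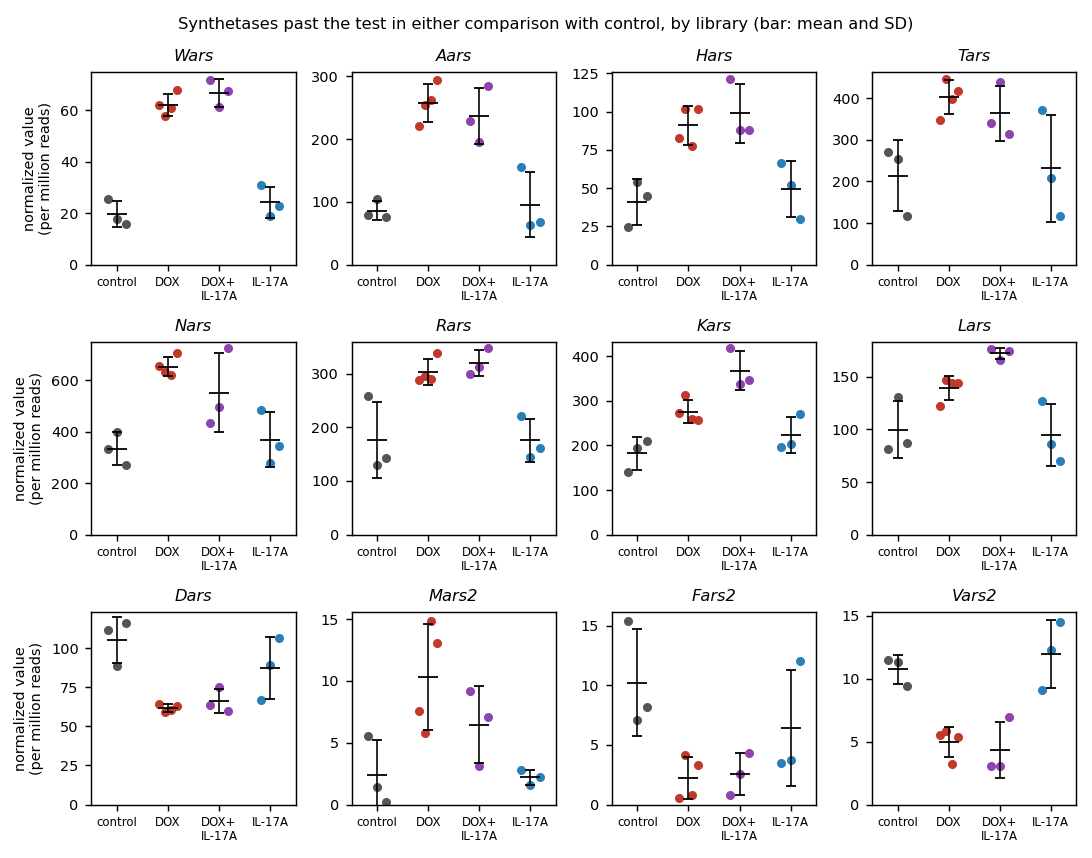
Normalized value in each library for the 12 synthetases past the test in DOX or DOX+IL-17A against control, with the mean and SD of each condition. *Wars*, *Aars* and *Hars* are higher in every library with DOX than in every library without, while *Fars2* and *Vars2* lie low with DOX at values under 7.

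Among the mitochondrial genes, *Mars2*, the methionine enzyme (chr1:55237177-55248470, plus strand), was the gene that rose. It had 5.58, 1.40 and 0.24 in control and 7.57, 5.80, 14.8 and 13.1 with DOX, so that the lowest DOX library was just above the highest control library. With DOX+IL-17A it had 9.20, 3.08 and 7.12 and with IL-17A 2.82, 1.57 and 2.22. The value in control replicate 5 stood for 2 reads, under the floor of 3, and the most reads in any library were 146. The log2 fold change was 1.99 with DOX (SE 0.51, adjusted p = 0.012) and 1.37 with DOX+IL-17A (SE 0.55, adjusted p = 0.094). Without control replicate 5 the first was 1.42 (adjusted p = 0.074), and without control replicate 1 the second was 2.02 (adjusted p = 0.0083).

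*Fars2*, the phenylalanine enzyme (chr13:36117412-36726280, plus strand), had 15.4, 7.12 and 8.13 in control and 0.56, 4.16, 0.84 and 3.31 with DOX. With DOX+IL-17A it had 0.82, 2.58 and 4.31 and with IL-17A 3.49, 3.77 and 12.1. Libraries with DOX were all below the control libraries, and the IL-17A libraries lay across both. Its log2 fold change was -1.92 with DOX (SE 0.53, adjusted p = 0.018). Without control replicate 1, DOX replicate 1 or DOX replicate 3 the adjusted p was 0.052 to 0.055.

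*Vars2*, the valine enzyme (chr17:35655634-35667592, minus strand), had 11.5, 11.3 and 9.43 in control and 5.55, 5.80, 3.22 and 5.37 with DOX. Its values were 3.07, 3.08 and 6.93 with DOX+IL-17A and 9.12, 12.3 and 14.5 with IL-17A. Every library with DOX was below every library without it. Relative to control, the log2 fold change was -0.99 with DOX (SE 0.33, adjusted p = 0.042). The call in DOX against control was lost when any control or any DOX library was left out (adjusted p = 0.057 to 0.11).

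*Iars2*, the isoleucine enzyme and the most abundant mitochondrial member, had 90.5, 38.1 and 58.3 in control and 48.7, 26.3, 31.5 and 29.9 with DOX (-0.80, SE 0.33, adjusted p = 0.089). It had 39.5, 39.2 and 49.2 with DOX+IL-17A and 44.8, 44.0 and 97.8 with IL-17A, and the ranges overlapped. *Aars2*, the alanine enzyme and the least abundant, had 0, 0.79 and 2.24 in control and 1.13, 0.77, 0.56 and 1.07 with DOX. It had 0.61, 1.49 and 2.18 with DOX+IL-17A and 0.34, 0.31 and 1.39 with IL-17A. Control replicate 1 had 0 reads of *Aars2*, which allows a value of up to 0.508. *Aars2* had a mean of 11.1 reads per library, so that a difference in it was not detectable at this depth unless large. The other 11 mitochondrial genes (*Cars2*, *Ears2*, *Hars2*, *Lars2*, *Nars2*, *Pars2*, *Rars2*, *Sars2*, *Tars2*, *Wars2* and *Yars2*) did not pass in any comparison, with log2 fold changes of DOX against control from -0.42 (*Wars2*) to 0.65 (*Cars2*). The 6 cytosolic genes not given by library (*Cars*, *Farsb*, *Iars*, *Qars*, *Sars* and *Vars*) did not pass in any comparison either, with values from -0.27 (*Farsb*) to 0.56 (*Cars*).

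Genes for the same amino acid in the compartments can be set side by side in 17 pairs. The pairs are not all of separate genes, since *Fars2* stands beside both *Farsa* and *Farsb*, and *Eprs* beside both *Ears2* and *Pars2*. With DOX, 0 pairs had both genes past the test, 6 had the cytosolic gene alone, 4 the mitochondrial gene alone and 7 neither. Of all genes tested 22.1% passed in either direction. The difference was higher for the cytosolic gene in 13 of 17 pairs. For tryptophan, *Wars* had 1.63 and *Wars2* -0.42. For histidine, *Hars* had 1.19 and *Hars2* -0.27. For methionine the order was the other way, with 1.27 for *Mars* and 1.99 for *Mars2*. The difference between partners was not tested. *Tarsl2*, a further cytosolic threonine enzyme, was in the table but not among the members, and is named after its values were seen. It had -0.04 with DOX (SE 0.22, adjusted p = 0.93).

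With DOX+IL-17A against control, 6 cytosolic genes rose (*Wars*, *Aars*, *Hars*, *Kars*, *Rars* and *Lars*), 1 fell (*Dars*) and 13 did not pass. Among all genes 9.37% rose and 8.34% fell. The cytosolic median was 0.70, with 17 of 20 above 0, and that of all genes 0.04. Of the mitochondrial genes 0 rose, 2 fell (*Fars2* and *Vars2*) and 14 did not pass, with a median of 0.12. Past 2-fold as well were 4 cytosolic genes, all higher, and 2 mitochondrial genes, against 12.9% of all genes in either direction. *Wars* had 1.73 (SE 0.24, adjusted p = 0.00040), *Aars* 1.44 (SE 0.29, adjusted p = 0.0038) and *Hars* 1.3 (SE 0.31, adjusted p = 0.011). *Rars* had 0.92 (SE 0.24, adjusted p = 0.018), *Dars* -0.66 (adjusted p = 0.042), *Fars2* -1.71 (adjusted p = 0.047) and *Vars2* -1.20 (adjusted p = 0.028). On leaving out 1 library at a time the call was lost in 10 of 13 fits for *Dars* (adjusted p = 0.056 to 0.14), in 9 for *Fars2* (0.051 to 0.18), in 4 for *Vars2* and in 3 for *Rars*. *Fars2* also lost its call under 6 of the 9 other settings, and *Dars* and *Vars2* under 3 each. This comparison and that of DOX share the control libraries, so that their values are not independent. In a fit of the DOX+IL-17A and control libraries alone, 2 cytosolic and 0 mitochondrial genes passed. Over all genes 306 rose and 295 fell in that fit, against 1154 and 1028 in the main fit. Without control replicate 1, 10 cytosolic genes rose and 1 fell, which was *Vars* in place of *Dars*. Of the 12795 genes tested in that fit 1332 rose and 1254 fell. The mitochondrial genes past the test were then *Mars2*, which rose, and *Vars2*, and the mitochondrial median was -0.05.

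The comparison of DOX+IL-17A with IL-17A shares no control library with these, but it shares its treated libraries with the preceding one. In it 7 cytosolic genes rose (*Aars*, *Hars*, *Kars*, *Lars*, *Rars*, *Wars* and *Yars*) and 0 fell, against 6.51% and 6.75% of all genes tested, with a median of 0.66 against 0.02 over all genes. *Wars* had 1.46 (SE 0.24, adjusted p = 0.0019) and *Aars* 1.40 (SE 0.29, adjusted p = 0.0063). Of the mitochondrial genes *Vars2* fell (-1.33, SE 0.35, adjusted p = 0.022) and 15 did not pass. Leaving out single libraries gave 2 to 9 cytosolic genes, the fewest without DOX+IL-17A replicate 2, DOX+IL-17A replicate 3 or IL-17A replicate 3. Over all genes, 458, 455 and 306 rose and 485, 492 and 413 fell without these, against 802 and 831 in the main fit.

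No synthetase passed the test for the addition of IL-17A. Against control, 0 of 36 members passed with IL-17A alone (limma, smallest adjusted p = 0.96, 1 member at an unadjusted p under 0.05), and 0.00812% of all genes did. With DOX+IL-17A against DOX, 0 of 36 passed (smallest adjusted p = 0.77, 1 member at an unadjusted p under 0.05), against 0.455% of all genes. By edgeR's quasi-likelihood test, DESeq2 and voom with limma 0 members passed in either comparison. Whether IL-17A had a different effect in the presence of DOX was tested as an interaction, which passed for 0% of genes by limma (556 genes at an unadjusted p under 0.05, 0 by edgeR's quasi-likelihood test and 18 by DESeq2), and so for 0 members. The median log2 fold changes of the cytosolic genes were 0.04 with IL-17A against control and 0.07 with DOX+IL-17A against DOX. In the latter comparison the SE was 0.23 for *Wars* and 0.51 for *Mars2*. A difference of more than 2 SE did not pass there (*Kars*, 0.41 with SE 0.19), so that differences of that size and smaller may have been missed. A single value compared by exact permutation test, 2-sided, cannot go below p = 0.0571 with 4 against 3 libraries or 0.1 with 3 against 3.

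Among the partners of the synthetases, the shares of genes that rose with DOX were close to the 12.4% of all genes tested. They were 12.5% of the scaffold and partner genes, 11.8% of the genes of tRNA editing and maturation and 11.1% of the mitochondrial tRNA and translation genes. Of 8 scaffold and partner genes 1 rose, *Eef1e1*, a scaffold protein of the complex (1.35, SE 0.34, adjusted p = 0.012), and 1 fell, *Eef2*, the elongation factor that moves the ribosome along the message (-1.31, SE 0.41, adjusted p = 0.035). *Eef2* had 119, 34.3 and 40.8 in control and 41.1, 11.7, 21.5 and 21.2 with DOX, and without control replicate 1, its highest library, the difference was -0.76 (adjusted p = 0.14). Of 17 genes of tRNA editing and maturation 2 rose and 0 fell. These were *Trmt61a*, which methylates adenosine in tRNA (1.77, adjusted p = 0.0022), and *Trnt1*, which adds the CCA end that carries the amino acid (0.94, adjusted p = 0.015). Of 18 mitochondrial tRNA and translation genes tested 2 rose and 0 fell, namely *Qrsl1*, a subunit of the enzyme that makes glutaminyl-tRNA in mitochondria in place of a separate synthetase (1.47, adjusted p = 0.042), and *Trmt10c*, part of mitochondrial ribonuclease P (1.01, adjusted p = 0.032). The call of *Qrsl1* was lost without control replicate 1 (0.90, adjusted p = 0.16), and that of *Trmt10c* without DOX replicate 1 (1.0, adjusted p = 0.063). With DOX+IL-17A against control *Eef1e1*, *Trmt61a* and *Trnt1* rose as well, and 0 of the 18 mitochondrial genes did.

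Of 6 genes of eIF2 and its kinases 2 rose with DOX, *Eif2ak2*, the kinase that senses double-stranded RNA (1.89, SE 0.27, adjusted p = 0.00028), and *Eif2s1*, the α subunit itself (0.93, SE 0.22, adjusted p = 0.0085). The list of ATF4 and stress response genes had 14 of 32 rise and 1 fall, *Ddit4* (-1.54, adjusted p = 0.013), with a median log2 fold change of 0.86. Without control replicate 1, 13 rose and 2 fell, and without DOX replicate 1, 12 and 1. Over all genes 1434 rose and 1216 fell in the first of these fits, and 1216 and 951 in the second. In the main fit the shares that rose were 33.3% of the eIF2 genes and 43.8% of the ATF4 and stress genes, against 12.4% of all genes tested. The same counts, 14 and 1, were found with DOX+IL-17A against control and against IL-17A, where 9.37% and 6.51% of all genes rose, and 0 passed in DOX+IL-17A against DOX. *Atf4* itself had 9.30, 3.90 and 2.95 in control and 10.6, 5.36, 8.67 and 4.2 with DOX, ranges that overlapped (0.42, SE 0.39, adjusted p = 0.46). *Ddit3*, the transcription factor CHOP, went from 19.4 ± 9.75 (SD, n = 3) to 68.7 ± 10.4 (SD, n = 4), which is 1.86 on the log2 scale (adjusted p = 0.00087). Exons of *Ddit3* overlap the end of *Mars* on the opposite strand, so that the limit given for *Mars* applies to *Ddit3* too. *Asns*, asparagine synthetase, an enzyme of amino acid synthesis and not of tRNA charging, had 0.93 (adjusted p = 0.036, and 0.83 with adjusted p = 0.073 without control replicate 1). *Trib3*, a pseudokinase induced under stress, had 1.27 (adjusted p = 0.0076), and *Chac1*, which degrades glutathione, had 2.55 (adjusted p = 0.00025). Largest in the list were *Atf3* at 3.12 (adjusted p = 0.00014), *Chac1*, and *Ppp1r15a*, the subunit that directs dephosphorylation of eIF2α, at 2.04 (adjusted p = 0.0024).

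Interferon response genes are given beside *Wars* because interferon is known to induce it. With DOX 10 of 11 rose, against 12.4% of all genes tested, led by *Isg15* (4.52, adjusted p = 4.0e-06), *Cxcl10* (4.31, adjusted p = 2.3e-05) and *Rsad2* (3.78, adjusted p = 4.0e-06). In DOX+IL-17A against DOX 7 of 11 fell, with a median log2 fold change of -1.88, against 0.455% of all genes past the test in either direction. *Wars* had 0.10 (SE 0.23, adjusted p = 1.0) in that comparison. *Isg15* had 362, 368, 513 and 462 with DOX and 139.9, 79.4 and 51.2 with DOX+IL-17A, which did not overlap, and the values of *Wars* given above overlapped. With DOX+IL-17A against control, 6 of the 11 interferon response genes rose and 5 did not pass, with a median of 1.26. Of all genes tested 9.37% rose there. *Isg15* had 2.19 and *Cxcl10* 2.75 in that comparison. The part of interferon in the level of *Wars* was not tested.

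**Figure D4:**
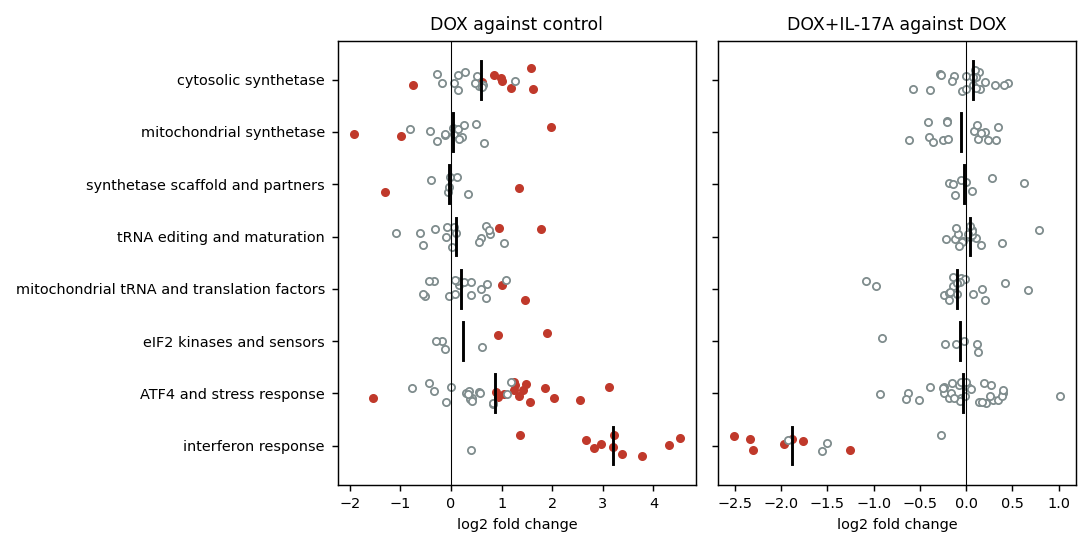
Log2 fold change of each gene, by list, for DOX against control (left) and DOX+IL-17A against DOX (right), red and filled where the adjusted p was under 0.05, with the list's median as a black line. Cytosolic synthetases are shifted to the right with DOX (median 0.58) and centered near 0 (0.07) when IL-17A was added, where the interferon response genes lie at a median of -1.88.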

How the data were processed

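Bulk RNA of 13 libraries of cultured 4T1-Thy1.1 cells was sequenced from the 3′ end in single 75 base reads. The authors aligned reads to the mm10 genome with STAR, counted them per gene with featureCounts and normalized by TMM, and the deposited table holds this normalized signal per gene and library rather than counts. Of its 13223 entries 1 was an identical second entry and was dropped. All values (100%, within 0.001 reads) were whole multiples of 1 read's worth, which returned the reads for the low-read filter and for the count-based alternatives.

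The test was limma with a variance trend on log2(signal + 1), with condition as the only factor, on all 13 libraries and the 12319 genes kept by edgeR's filterByExpr, with Benjamini-Hochberg adjustment over these genes and a threshold of 0.05. Adding 1 shrinks the fold changes of genes with low values. "Rose" and "fell" mean past that threshold, and a 2-fold limit, which the study used as well, is given beside it. The study itself used voom with limma, which is an alternative here because the deposited unit is not a count.

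The members and all gene lists were chosen with earlier results of these data known. Values by library are given for members past the test, for *Wars*, *Eprs*, *Gars* and *Kars*, and for the highest and lowest member of each compartment. From the other lists *Atf4*, *Ddit3*, *Asns*, *Trib3*, *Chac1* and up to 3 genes with the largest change were named.

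Alternatives were a pseudocount of 0.1, library size scaling, all genes or a mean of at least 10 reads, voom, edgeR's quasi-likelihood test, DESeq2, a fit of only the groups compared, a replicate block, the 2-fold limit, and leaving out each library. Leaving out control replicate 1 and DOX replicate 1 together, and leaving out either for the other gene lists, was added after the data were seen. The deviations of same-numbered libraries from the mean of their condition correlated at 0.15 on average (13 pairs, -0.18 to 0.49), against -0.04 for other pairs (50). The main fit did not take the numbers as pairs in any comparison, and the replicate block was an alternative only. In DOX+IL-17A against IL-17A all 3 same-numbered pairs were above 0.1, so the numbers may pair those libraries. Within a condition, chi-square per degree of freedom between replicates was 7.72 to 182, above sampling noise. Gene ends were compared with GENCODE M21 and RefSeq annotations of GRCm38. Versions were DESeq2 1.42.0, edgeR 4.0.16, limma 3.58.1, R 4.3.3, matplotlib 3.10.9, pandas 2.3.3, numpy 2.4.6, scipy 1.17.1 and python 3.11.15.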

Additional observations from a re-analysis of the deposited data

Results flagged for a closer look

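In the DOX group, the only one with 4 libraries, each of the 36 synthetases was searched for a library far from the other 3 (Dixon's 95% limit, which chance passes in about 1 of 20 groups). This picked out 6 genes, 3 of them in DOX replicate 1, the library with high muscle and red blood cell markers, whose part was not tested. The same search was not made over all genes tested, so whether these counts are high for these libraries is not known. In DOX replicate 1 *Lars* was lowest at 121.854, *Hars2* was lowest at 17.6261 and *Lars2* was highest at 81.9333 normalized units. *Rars* was highest in DOX replicate 4 at 339.44, and *Sars2* was highest there at 7.06421. *Vars2* was lowest in DOX replicate 3 at 3.21561. *Lars2*, the mitochondrial leucine enzyme, had 14.1, 19.7 and 11.4 in the other DOX libraries.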

How the results depend on the processing

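Leaving out 1 library at a time, DOX against control gave 5 to 10 cytosolic and 1 to 3 mitochondrial synthetases past the test (8 and 3 with all libraries), DOX+IL-17A against control 4 to 11 and 0 to 2 (7 and 2), and DOX+IL-17A against IL-17A 2 to 9 and 0 to 1 (7 and 1). The highest cytosolic counts came without control replicate 1, where *Cars*, *Farsa* and *Yars* were gained and *Kars* was lost for DOX. With DOX against control the counts were 5 and 0 with the replicate block and 4 cytosolic genes with the 2-fold limit, and 1 mitochondrial gene passed without control replicate 1 and DOX replicate 1. With DOX+IL-17A against control, 2 and 0 passed in a fit of those groups alone, 4 cytosolic genes with the 2-fold limit, 0 mitochondrial genes with voom or the replicate block, and 1 with a pseudocount of 0.1, library size scaling, edgeR or both libraries left out. With DOX+IL-17A against IL-17A, 4 cytosolic genes passed with the 2-fold limit and 0 mitochondrial genes in a fit of those groups alone. The cause of these shifts was not tested. Leaving out libraries leaves fewer samples, and the number of all genes past the test moved as well. For DOX against control 1528 of all genes rose and 1196 fell in the main fit, and 1013 and 767 with the replicate block. With the 2-fold limit 1127 rose and 761 fell. For DOX+IL-17A against control the block gave 776 and 725, against 1154 and 1028 in the main fit. For DOX+IL-17A against IL-17A it gave 931 and 977, against 802 and 831. With the replicate block *Dars*, *Rars*, *Tars*, *Fars2*, *Mars2* and *Vars2* lost their calls for DOX, and *Dars*, *Lars*, *Fars2* and *Vars2* for DOX+IL-17A against control. In DOX+IL-17A against IL-17A, where the numbers may pair the libraries, the block kept all 7 and 1 genes. Of 12 libraries with a partner, 7 correlated best with their own number. Direction was reversed in 5 values near 0, none of them past the test, all on leaving out DOX+IL-17A replicate 5 or control replicate 5. Over the fits without 1 library, log2 fold changes in DOX+IL-17A against control ran from -0.078 to 0.36 for *Eprs*, from -0.031 to 1.3 for *Mars* and from -0.10 to 0.35 for *Gars*. With DOX *Gars* ran from -0.00617 to 0.35. Of the mitochondrial genes 4 had under 50 mean reads. The part of depth in their calls was not tested.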
